A study of Mus musculus with 24 samples.

Results

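The response to GW3965 was compared between the ileum and the liver of Villin-Cre mice, gene by gene. Both tissues came from C57BL/6 mice that had undergone 75% resection of the small bowel. All Villin-Cre mice carried floxed Abca1 alleles (Abca1 fl/fl X Villin-Cre), so Cre driven by the Villin promoter removes Abca1 from the intestinal epithelium of every group compared here, treated or not, while hepatocytes and non-epithelial gut cells keep the gene. Dosing was oral, at 1 mg/kg/day and 2 times weekly, over the final 5 of 10 postoperative weeks, with 0.5% carboxymethyl cellulose as the vehicle and vehicle alone for controls. The groups were Villin-Cre vehicle and Villin-Cre GW3965, each with 3 ileal and 3 liver libraries, 12 of the 24 libraries of the series. The other 12 came from floxed mice (Abca1 fl/fl without Cre) and enter only the comparison by genotype near the end. No mouse without resection was analysed here, and the age and sex of the animals are not part of the labels used. The measure was a difference of differences: the change with GW3965 in the ileum minus the change with GW3965 in the liver, both on the scale log2(CPM + 0.5), where CPM are counts of reads assigned to genes, scaled to a common library total. It is called the tissue difference below. It is above 0 where the ileum moved further upward than the liver and below 0 where it moved further downward. Genes had to reach 0.5 CPM in at least 3 of the 6 Villin-Cre libraries of each tissue, which 15335 of 40481 genes did.

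GW3965 is a small molecule that activates the liver X receptors LXRα and LXRβ. These nuclear receptors sense oxysterols, pair with RXR on DNA and switch on genes of cholesterol export (Abca1, Abcg1, Abcg5, Abcg8) and, through SREBP-1c, of fatty acid synthesis. In the enterocyte, LXR activity lowers cholesterol uptake and feeds high-density lipoprotein through ABCA1; in the hepatocyte, it is best known for lipogenesis and triglyceride accumulation. The purpose stated in the title of the series is activation of LXR confined to the intestine by a low oral dose, so the contrast between ileum and liver bears on its central question.

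Depth was 17.1 to 24.2 M assigned reads for ileal libraries and 27.1 to 32.3 M for liver libraries. Tissue labels matched their markers: the ileal bile acid binding protein gene Fabp6 ranged from 1176 to 1302 CPM (vehicle) and 5053 to 5266 CPM (GW3965) in the ileum and was at 0 in all 6 liver libraries, while Alb lay between 37560 and 42250 CPM in the liver and between 5.05 and 17.3 CPM in the ileum. No Villin-Cre library stood apart from its group. Levels below are means of 3 libraries; for named genes of at least 5 CPM the median SD was 2.61 to 4.43% of the mean over the 4 groups, and 95% of SDs were within 9.88 to 15.0% of it. Libraries of the same group differed from each other by only 2.61 to 3.27 times the variance of independent reads. Among nonzero recovered read numbers up to 10, 67.1 to 72.8% were even. If both reads of a pair were counted, this ratio would exceed 1 without any other variation, and depth would exceed the number of pairs. That was not tested. Between treatments the ratio was 21.7 to 23.3 for ileal pairs and 6.62 to 7.24 for pairs of liver libraries. The labels do not say which animal each library came from or whether the 3 libraries of a group came from 3 animals, so the p-values below measure the spread between these libraries, which may be technical. When the close libraries of each group were averaged to 1, leaving 10 units and 2 residual degrees of freedom over the series, limma called 10 genes in the tissue difference (2224 at an unadjusted p under 0.05), 1279 in the ileum and 0 in the liver (207 unadjusted). The spread in that fit came only from the floxed GW3965 groups, in each of which 1 library stood apart. Each Villin-Cre group was then 1 unit, so these counts do not measure spread within Villin-Cre groups. The predicted gene Gm26917, which took the most ileal reads, held 11.5 to 12.2% of an ileal library after vehicle and 3.92 to 4.2% after GW3965; in the liver it held 4.12 to 4.26% and 3.48 to 4.0%.

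Changes with GW3965 were more numerous and larger in the ileum than in the liver. With limma and Benjamini-Hochberg adjustment over 15335 genes, 9873 (64.4%) changed in the ileum, 4041 upward (26.4%) and 5832 downward (38.0%), against 3051 (19.9%) in the liver, 638 upward (4.16%) and 2413 downward (15.7%). Changes of at least 2-fold numbered 2434 in the ileum (15.9%), 618 up (4.03%) and 1816 down (11.8%). The liver had 81 (0.528%), 19 up (0.124%) and 62 down (0.404%). The median absolute change was 0.398 on the log2 scale in the ileum and 0.144 in the liver, and 77.5% of genes moved further in the ileum. The tissue difference itself passed the threshold for 7945 genes (51.8%), 3900 above 0 (25.4%) and 4045 below 0 (26.4%), and 2424 (15.8%) differed by at least 2-fold, 858 above 0 (5.6%) and 1566 below 0 (10.2%). Over all genes the median change was -0.093 in the ileum, -0.085 in the liver and -0.0071 for the tissue difference. Of the 15335 genes, 880 had a mean under 0.5 CPM in 1 treatment of a tissue and at or above it in the other, so they passed the filter through the treatment where they were higher. Counts and medians of gene lists below leave such members out, a choice made after the values were known, and the ones named are described by their levels. The deposited values are scaled by the total of reads. When libraries were rescaled by the median ratio over genes instead, the split of higher and lower calls moved in the liver from 638 and 2413 to 1187 and 1166, and for the tissue difference only from 3900 and 4045 to 4009 and 4014.

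Most of the 7945 genes were called in the ileum alone: 3105 fell and 2380 rose there while the liver change was not called. Only 323 fell and 75 rose in the liver with no call in the ileum. In 743 genes both tissues moved the same way with the ileum further from 0, in 37 the liver moved further, and 244 passed in the difference but in neither tissue. Opposite calls were made for 1038 genes (6.77% of all tested), 810 up in the ileum and down in the liver, and 228 down in the ileum and up in the liver. With rescaling these became 419 and 342, of which 575 were among the 1038. Of the 349 genes that the naming rule picks, 196 were called in the liver and 30 of these calls were lost with rescaling, none reversed; those described below are Abcg5, Mylip, Abca7, Smpdl3a, Abcc2, Ppara, Creb3l3, Cyp27a1, Hp, Nkd1 and Atp5o. In the ileum 9 of 332 calls were lost, among them Insig1, Cyp51 and Lpl. Rescaling also added calls, all upward for the genes given here. They included Srebf1, Scd2 and Abca7 in the ileum and Lpcat3, Dgat2, Dbp and Pck1 in the liver. Both tissues changed the same way in 1383 genes (9.02%). Across genes, the Pearson correlation of the 2 responses was 0.094 over 15335 genes, which are not independent of each other.

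**Figure D1:**
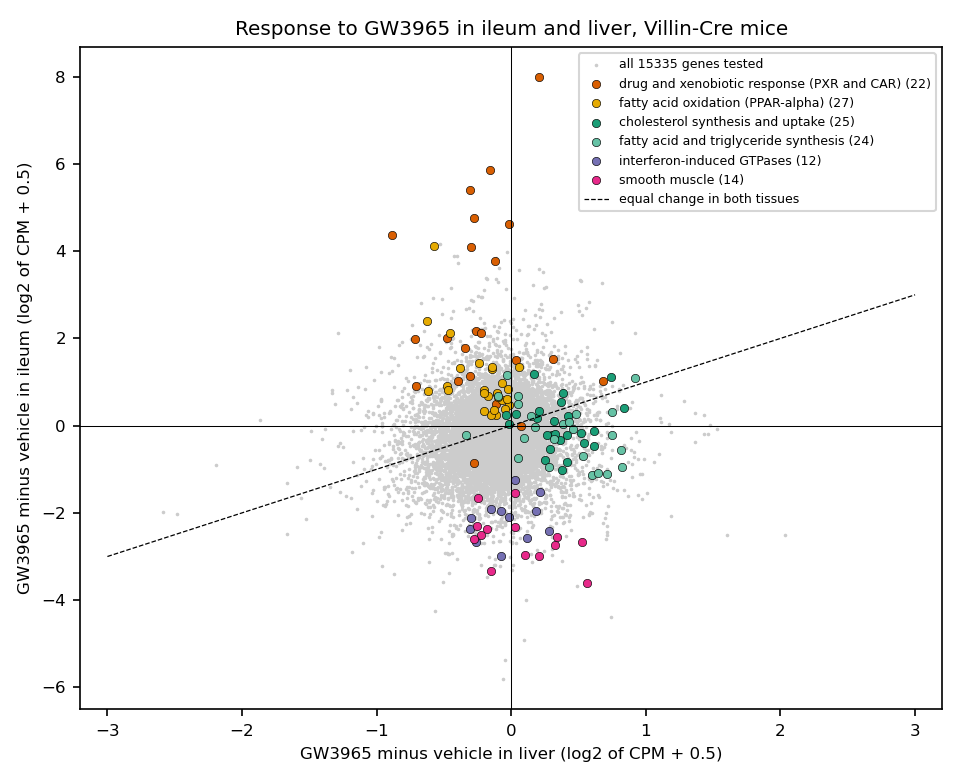
Change with GW3965 in the liver (x axis) and in the ileum (y axis) for each of the 15335 genes, as log2 of CPM + 0.5, with 6 gene lists in colour; the dashed line marks equal change. The lists include members that reached 0.5 CPM in only 1 treatment of a tissue. The vertical spread exceeds the horizontal one (median absolute change 0.398 against 0.144). Cholesterol and fatty acid synthesis genes lie mostly to the right of 0. Drug response genes lie mostly above 0, with Abcc3 below it (-0.86), and fatty acid oxidation genes lie above 0.

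Abca1, the deleted gene and itself a classical LXR target, rose in both tissues. Its levels were 25.7, 30.6 and 28.5 CPM in the ileum after vehicle and 53.7, 53.7 and 54.0 CPM after GW3965. In the liver they were 225, 225 and 225 CPM and 382, 378 and 377 CPM. The treated libraries lay above all vehicle libraries in each tissue. Over all 15335 genes, treated and vehicle libraries did not overlap in 64.2% in the ileum and 42% in the liver. These shares are the background for each such statement below. The log2 change was 0.92 in the ileum and 0.75 in the liver, and the tissue difference was 0.17 ± 0.069 (SE; limma, adjusted p = 0.044). That small tissue difference lost its call under 13 of 20 alternatives, with values from 0.10 to 0.23. In floxed ileum, where the epithelium keeps the gene, Abca1 averaged 57.2 CPM after vehicle and 372 CPM after GW3965, with a change of 2.65. Fewer cells of a type and less RNA per cell cannot be told apart in these bulk samples, here or below. Abca1 lies at chr4:53030787-53159895 on the minus strand of GRCm38.

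LXR targets moved in both directions in each tissue. Of 23 members, 12 had a tissue difference above 0 (25.4% of all genes did) and 5 below 0 (26.4%). In the ileum 12 rose and 6 fell (15 and 5 with rescaling), and in the liver 7 rose and 6 fell (8 and 2 with rescaling). Over all genes, 26.4% rose and 38.0% fell in the ileum, and 4.16% rose and 15.7% fell in the liver. Here the median tissue difference of the list was 0.30, with medians of 0.38 in the ileum and -0.062 in the liver. The sterol exporters were as follows: Abcg5 went from 116 to 288 CPM in the ileum and from 48.2 to 43.8 CPM in the liver, a tissue difference of 1.44 ± 0.064, and Abcg8, which encodes the other subunit of this pump for sterols, went from 128 to 306 CPM in the ileum with 61.3 and 60.7 CPM in the liver (1.27 ± 0.063). Mylip, a ubiquitin ligase of lipoprotein uptake, rose from 19.2 to 44.5 CPM in the ileum and fell from 35.5 to 29.9 CPM in the liver (1.44 ± 0.095). Lpcat3, which puts polyunsaturated chains into phospholipids, rose from 133 to 297 CPM in the ileum, with 133 and 143 CPM in the liver (1.05 ± 0.052). Mertk, a receptor for apoptotic cells, had the highest tissue difference of the list, 1.77 ± 0.054: it rose from 109 to 313 CPM in the ileum and fell from 113 to 94.8 CPM in the liver. The apolipoprotein genes Apoc2 and Apoc1 rose in the ileum by 1.64 and 0.69, and Apoc2 also rose in the liver (0.29). Abcg1 and the receptor gene Nr1h3 (LXRα) rose in the ileum by 0.38 and 0.48, while Nr1h2 (LXRβ), outside the list, changed by -0.17 and -0.17.

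Srebf1, which encodes SREBP-1c, rose from 306 to 357 CPM in the liver (0.22). Its ileal levels were 77.8 and 82.8 CPM, a change that was not called (0.091) but was called with rescaling (0.19). The tissue difference did not pass (-0.13 ± 0.062, limma adjusted p = 0.081). Scd1, the stearoyl-CoA desaturase, rose in both tissues. Its ileal levels were 277, 271 and 272 CPM after vehicle and 596, 564 and 589.9 CPM after GW3965. The liver held 10800.0, 10910.0 and 10920.0 CPM and 20280.0, 20490.0 and 20840.0 CPM. The treated libraries did not overlap the vehicle libraries in either tissue, and the changes were 1.09 and 0.92 (tissue difference 0.17 ± 0.042, not called when the spread was estimated over all 24 libraries). Scd2 rose in the liver (0.38), with 0.044 in the ileum (called as a rise of 0.14 with rescaling) and a tissue difference of -0.34 ± 0.049. Pltp, Arl4c and Apoe fell in the ileum by 1.30, 0.98 and 0.24 on the log2 scale and were not called in the liver. Smpdl3a and Lpl fell in both tissues, Abca7 fell in the liver, Tlcd2 rose in both, and Txnrd3 was called in neither.

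Fatty acid synthesis genes rose in the liver, and 9 of 24 were called in opposite directions in the 2 tissues (6.77% of all genes). SREBP-1c drives these genes from acetyl-CoA to long-chain fatty acids. Fasn, the fatty acid synthase at the centre of the pathway, held 308, 292 and 320.2 CPM in the ileum after vehicle and 142, 150.0 and 133 CPM after GW3965. In the liver it held 720.5, 713 and 702 CPM and 1215, 1174 and 1117 CPM. So the treated libraries were the lower ones in the ileum and the higher ones in the liver, with no overlap, for a tissue difference of -1.83 ± 0.060 (limma, adjusted p = 3.46e-17). Acly, which makes cytosolic acetyl-CoA from citrate, fell from 98.5 to 61.1 CPM in the ileum and rose from 215 to 312 CPM in the liver. The desaturases Fads1 and Fads2 fell in the ileum by 1.14 and 1.09 on the log2 scale and rose in the liver by 0.60 and 0.65. Pnpla3, a lipid droplet protein under SREBP-1c control, had levels of 4.88 and 2.32 CPM in the ileum and 4.46 and 8.29 CPM in the liver, a tissue difference of -1.77 ± 0.25. Of 24 genes of fatty acid and triglyceride synthesis, 17 had a tissue difference below 0 (26.4% of all genes did) and 5 above 0 (25.4%). In the liver 16 rose (4.16% of all genes) and 1 fell (15.7%). In the ileum 8 rose (26.4%) and 12 fell (38.0%). With rescaling the ileal split was 10 and 10, and 8 were called in opposite directions. Here the median tissue difference of the list was -0.41, with medians of -0.14 in the ileum and 0.41 in the liver. The members above 0 included the acyltransferases Dgat1, Dgat2 and Agpat2. They rose in the ileum by 0.68, 0.50 and 0.69, and the elongase Elovl1 by 1.15, with liver changes between -0.096 and 0.053 that were not called. The desaturase Scd1, described above, was the other one.

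Cholesterol synthesis genes rose in the liver and were divided in the ileum. SREBP-2 switches on these genes when sterols are low. In the liver 21 of 25 genes rose (4.16% of all genes did) and 0 fell (15.7%). In the ileum 10 rose and 12 fell (26.4% and 38.0% of all genes), and with rescaling 12 rose and 10 fell. Opposite directions were called for 12 (6.77% of all genes), and for 10 with rescaling (761 of the 15335 genes). The tissue difference was below 0 in 14 (26.4% of all genes) and above 0 in 5 (25.4%), and the median tissue difference of the list was -0.47, with medians of -0.11 in the ileum and 0.36 in the liver. Fdps, the farnesyl diphosphate synthase, held 71.9, 73.6 and 79.5 CPM and then 53.4, 53.6 and 54.5 CPM in the ileum. In the liver it held 112, 106 and 109.7 CPM and then 168, 166 and 169 CPM. The tissue difference was -1.09 ± 0.063, and the groups overlapped in neither tissue. Sqle, the squalene epoxidase, fell from 204 to 154 CPM in the ileum and rose from 88.9 to 129 CPM in the liver. Mvd, the mevalonate diphosphate decarboxylase, fell by 0.83 on the log2 scale in the ileum and rose by 0.42 in the liver. Insig1, which retains the SREBP escort protein in the endoplasmic reticulum, and Cyp51, the lanosterol demethylase, rose in the liver by 0.61 and 0.52 and fell by 0.11 and 0.17 on the log2 scale in the ileum, calls that were lost there with rescaling. Members above 0 included Sc5d, Stard4 and Hsd17b7, with tissue differences of 0.38, 0.37 and 0.29.

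**Figure D2:**
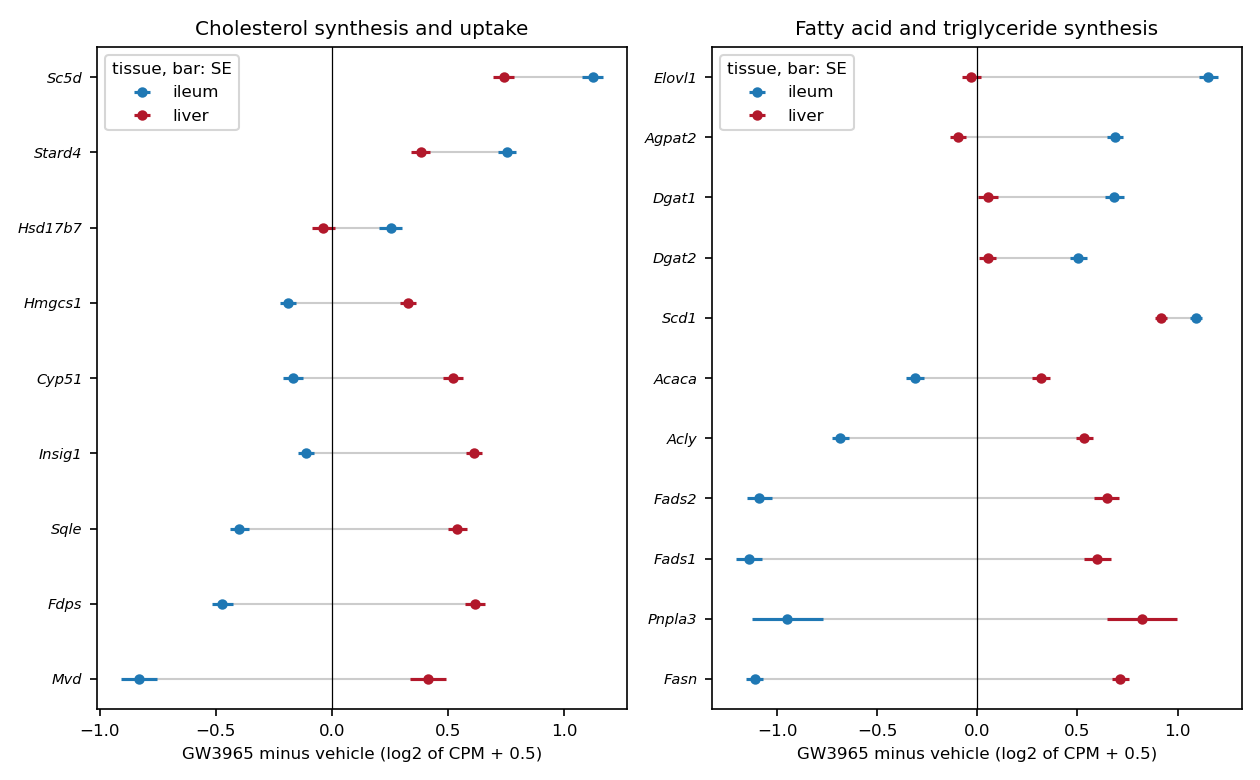
Change with GW3965 (log2 of CPM + 0.5, bars SE) in the ileum (blue) and the liver (red) for the genes of cholesterol synthesis and uptake (left) and of fatty acid and triglyceride synthesis (right) that are named here, ordered by the tissue difference. Liver points lie mostly right of 0, and the lower rows, from Fasn and Mvd to Acaca and Hmgcs1, have ileal points left of 0.

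The upstream DNA of the cholesterol genes called in opposite directions is shown because most of the list carries one motif in common. The 250 bases before the RefSeq start were searched on both strands for CCAAT, the box bound by NF-Y, a factor known to act beside SREBP. It was found in 16 of the 17 list members that have an entry among RefSeq promoters (GRCm38.p6) and in 39.8% of the 10777 tested genes with an entry. Capitals mark the box on either strand (CCAAT or ATTGG), and each sequence reads 5′ to 3′ along its gene.
Insig1: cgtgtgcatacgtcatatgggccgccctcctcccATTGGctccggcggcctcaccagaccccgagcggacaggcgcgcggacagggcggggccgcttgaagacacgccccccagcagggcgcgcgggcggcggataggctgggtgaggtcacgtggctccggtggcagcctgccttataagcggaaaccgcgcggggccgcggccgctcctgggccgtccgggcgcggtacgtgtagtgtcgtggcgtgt
Mvd: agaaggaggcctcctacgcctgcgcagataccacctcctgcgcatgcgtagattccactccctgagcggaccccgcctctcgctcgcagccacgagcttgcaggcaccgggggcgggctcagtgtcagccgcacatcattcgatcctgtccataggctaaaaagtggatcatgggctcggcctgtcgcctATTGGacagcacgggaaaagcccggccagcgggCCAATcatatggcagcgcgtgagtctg
Cyp51: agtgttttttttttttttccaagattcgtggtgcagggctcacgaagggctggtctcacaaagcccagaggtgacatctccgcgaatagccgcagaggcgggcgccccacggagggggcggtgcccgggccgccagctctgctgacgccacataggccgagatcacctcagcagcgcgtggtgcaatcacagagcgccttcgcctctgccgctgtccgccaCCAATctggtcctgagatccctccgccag
These stretches lie at chr5:28071162-28071411, plus strand (Insig1), chr8:122443423-122443672, minus strand (Mvd) and chr5:4104698-4104947, minus strand (Cyp51). The sterol element written TCACNCCAC was present in 1 of the 17 and in 1.31% of all, and a shorter form, TCACNCNA, in 4 of the 17 and 10.1% of all. CCAAT was also present in 11 of 19 fatty acid and triglyceride synthesis genes, 18 of 23 cell cycle genes and 11 of 15 circadian clock genes. A match is a description of letters, not a binding site. The motifs and the promoters shown were chosen after the values were known.

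Drug metabolism genes rose in the ileum. PXR and CAR are nuclear receptors that sense foreign compounds and bile acids and induce cytochrome P450, conjugating and efflux genes in gut and liver. Abcb1a, the P-glycoprotein efflux pump, held 104, 108 and 102 CPM and then 2842, 2820.0 and 2859 CPM in the ileum. Its liver levels were 35.4, 33.4 and 33.4 CPM and then 28.9, 26.8 and 28.7 CPM. That is a rise of 4.76 against a fall of 0.27 on the log2 scale. Cyp3a11, the main PXR-induced P450 of the mouse, went from 2.44 to 123 CPM in the ileum and from 1208 to 976 CPM in the liver (5.71 ± 0.066). Cyp3a25 went from 6.67 to 147 CPM in the ileum and from 278 to 151 CPM in the liver. The P450 genes Cyp2c55 and Cyp2b10 reached 0.5 CPM in the ileum after GW3965 and not after vehicle, so their values are a description. Ileal levels of Cyp2c55 were 0.103, 0.117 and 0.108 CPM after vehicle and 158, 151 and 155 CPM after GW3965. Its liver levels were 3.13, 4.32 and 3.50 CPM and 3.62, 4.95 and 4.28 CPM, which overlapped. The tissue difference ran from 6.06 to 9.91 over the alternatives. Cyp2b10, the classical CAR target, held 0.103, 0.234 and 0 CPM and then 9.35, 10.7 and 9.48 CPM in the ileum, with 1.57 and 1.18 CPM in the liver, and ran from 2.65 to 7.09.

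Over the list, 18 of 20 members at 0.5 CPM or more in both treatments had a tissue difference above 0 (25.4% of all genes) and 1 below. In the ileum 18 rose (26.4% of all genes), and in the liver 2 rose (4.16%) and 11 fell (15.7%); the median tissue difference of the list was 2.23, with medians of 1.88 in the ileum and -0.27 in the liver. The glutathione transferase gene Gstm3 rose from 0.838 to 72.6 CPM in the ileum with 992 and 890.4 CPM in the liver, the carboxylesterase Ces2a rose from 29.9 to 749 CPM in the ileum with 36.3 and 35.8 CPM in the liver, and Abcc2, the canalicular and brush border conjugate exporter, rose from 60.0 to 830.2 CPM in the ileum while falling from 1403 to 1288 CPM in the liver. The CAR gene Nr1i3 rose from 1.12 to 5.62 CPM in the ileum and fell from 83.0 to 50.3 CPM in the liver (2.70 ± 0.22). Abcc3, the exporter of the basolateral side, was the exception and fell in both tissues (-0.86 and -0.28). Of 26 phase 2 conjugation genes, 21 lay above 0 (25.4% of all genes) and 1 below, 21 rose in the ileum (26.4%), and 1 rose and 8 fell in the liver (4.16% and 15.7%). The Gst and Cyp3a genes belong to families with near-identical copies, whose reads the counting may have split. Other genes with large differences above 0 were the second P-glycoprotein gene Abcb1b (4.02) and the peroxisomal genes Acaa1b (4.70) and Acox2 (4.12).

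**Figure D3:**
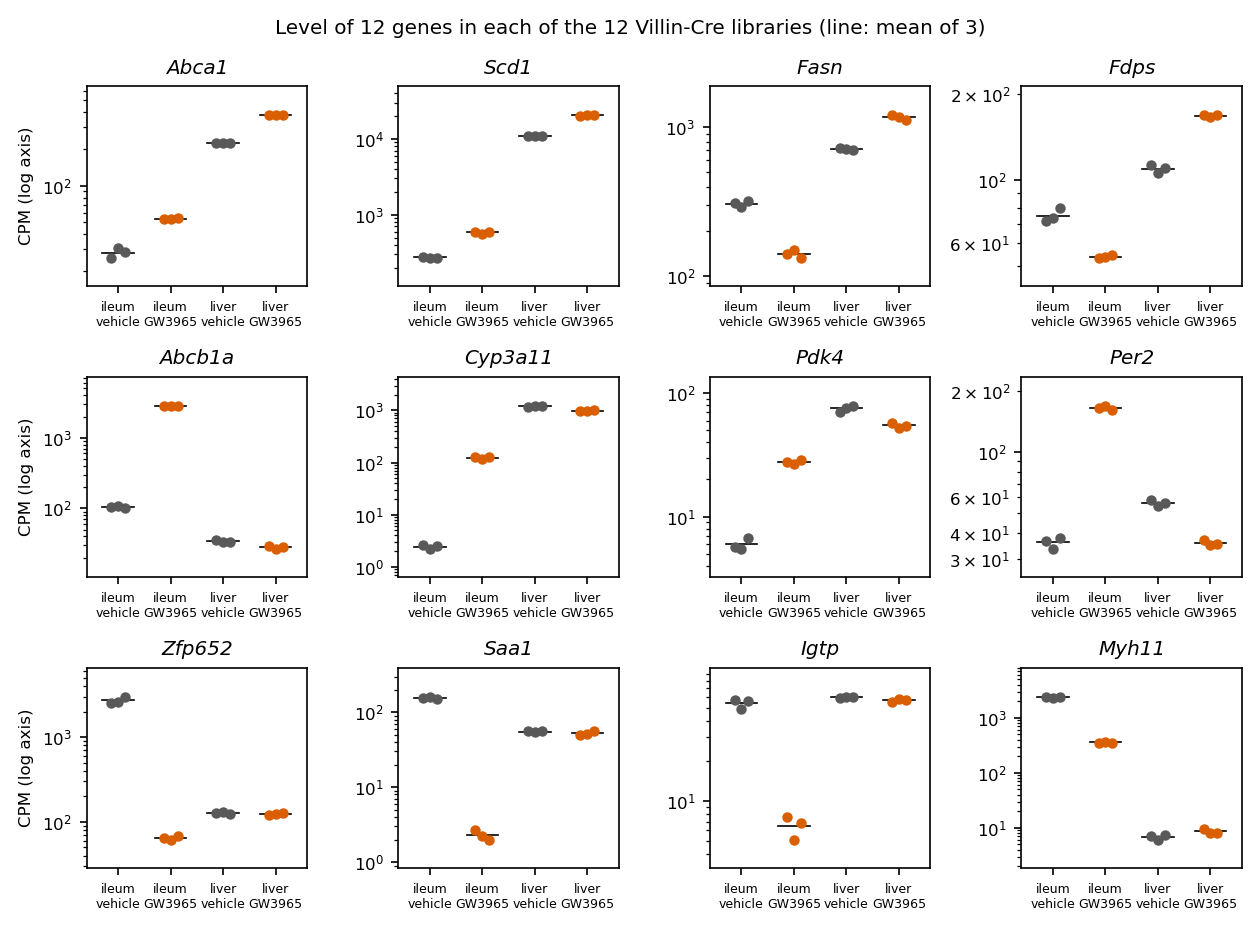
Level in CPM (log axis) of 12 genes in each of the 12 Villin-Cre libraries, grey for vehicle and orange for GW3965, with a line at the mean of 3. In the ileum each of these genes has treated and vehicle libraries that do not overlap, as do 64.2% of all genes tested. Abcb1a, Cyp3a11 and Per2 are higher and Zfp652, Saa1, Igtp and Myh11 lower after GW3965.

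Fatty acid oxidation genes rose in the ileum. These genes are the main targets of PPARα. The 26 members at 0.5 CPM or more in both treatments rose in the ileum (26.4% of all genes did). The tissue difference was above 0 in 26 (25.4%). In the liver 15 fell and 0 rose (15.7% and 4.16%), so 15 were called in opposite directions (6.77%). With rescaling the liver falls and opposite calls were 7 and 7 (1166 and 761 of the 15335 genes). Here the median tissue difference of the list was 0.90, with medians of 0.77 in the ileum and -0.14 in the liver. Pdk4, which holds back glucose oxidation, held 5.65, 5.49 and 6.67 CPM and then 27.5, 26.5 and 28.8 CPM in the ileum. In the liver it held 71.0, 75.4 and 79.4 CPM and then 57.3, 52.7 and 54.5 CPM. The groups overlapped in neither tissue, and the change was 2.13 against -0.45. Ehhadh and Ucp2 rose by 0.92 and 0.82 in the ileum and fell by 0.48 and 0.47 on the log2 scale in the liver. The receptor gene Ppara itself rose from 13.9 to 36.4 CPM in the ileum and fell from 199 to 179.8 CPM in the liver.

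Absorptive enterocyte genes rose in the ileum. All 15 genes of the brush border and lipid absorption list that passed the filter rose there (26.4% of all genes) and had a tissue difference above 0 (25.4%), and in the liver 7 rose and 5 fell (4.16% and 15.7%). Fabp2, the intestinal fatty acid binding protein, rose from 676 to 3329 CPM in the ileum and from 45.6 to 52.1 CPM in the liver (2.11 ± 0.055). Apoa1 and Apob, the proteins of high-density lipoprotein and chylomicrons, rose in both tissues, by 1.74 and 1.4 in the ileum and 0.19 and 0.19 in the liver. Apoa4 and Creb3l3, the factor that drives it, rose in the ileum by 0.96 and 2.29 and fell in the liver by 0.29 and 0.13 on the log2 scale. Of 20 genes of gluconeogenesis and glycolysis, 15 rose and 4 fell in the ileum (26.4% and 38.0% of all genes). Pck1, the first enzyme of gluconeogenesis, rose from 39.7 to 479 CPM in the ileum, with 2304 and 2397 CPM in the liver (3.52 ± 0.056), and the glucose transporter Slc2a2 rose from 12.0 to 127 CPM in the ileum, with 109 and 101 CPM in the liver. Among bile acid genes Cyp27a1, the sterol 27-hydroxylase, rose from 15.2 to 58.2 CPM in the ileum and fell from 275 to 232 CPM in the liver. The FXR target Nr0b2 (SHP) reached 0.5 CPM in the ileum after GW3965 and not after vehicle: it averaged 0.0343 and 1.41 CPM in the ileum and 31.5 and 19.5 CPM in the liver, and its tissue difference ran from 1.39 to 5.63 over the alternatives. Slc10a2, the ileal bile acid uptake carrier, rose in both (0.96 and 0.33).

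Interferon-induced GTPase genes fell in the ileum. The immunity-related and guanylate-binding GTPases are induced by interferon-γ and attack vacuoles of intracellular microbes. All 12 tested members fell in the ileum (38.0% of all genes) and had a tissue difference below 0 (26.4%), and none was called in the liver by limma, where 2 rose with rescaling; the median tissue difference of the list was -2.07, with medians of -2.10 in the ileum and -0.044 in the liver. Igtp held 57.7, 49.4 and 56.7 CPM in the ileum after vehicle and 7.60, 5.12 and 6.87 CPM after GW3965. Its liver levels were 59.4, 60.5 and 60.8 CPM and 55.2, 58.5 and 57.9 CPM. The ileal groups were wide apart and the liver groups close, for a tissue difference of -2.91 ± 0.13 (limma, adjusted p = 1.36e-14). Irgm2 had levels of 84.2 and 13.8 CPM in the ileum and 88.4 and 96.2 CPM in the liver, and Gbp7 had 40.4 and 10.0 CPM in the ileum and 28.2 and 32.1 CPM in the liver. The summed level of the 12 GTPases ranged from 411 to 429 CPM in vehicle and 79.7 to 85.6 CPM in treated ileum, against 484 to 494 and 504 to 544 CPM in the liver. Several of these genes are close copies of one another, so single values carry that uncertainty.

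The promoters of these GTPases are shown because those searched share an interferon-stimulated response element core. The motif GAAANNGAA, searched on both strands of the 250 bases before the RefSeq start, was present in 8 of the 8 members with an entry, in 10 of 18 genes of the wider interferon response list and in 7.62% of the 10777 tested genes with an entry. Capitals mark the motif or its reverse complement.
Irgm2: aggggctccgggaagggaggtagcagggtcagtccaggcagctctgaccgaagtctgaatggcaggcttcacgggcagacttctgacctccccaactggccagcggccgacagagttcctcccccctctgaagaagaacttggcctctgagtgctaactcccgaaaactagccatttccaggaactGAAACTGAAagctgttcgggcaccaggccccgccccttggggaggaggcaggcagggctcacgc
Igtp: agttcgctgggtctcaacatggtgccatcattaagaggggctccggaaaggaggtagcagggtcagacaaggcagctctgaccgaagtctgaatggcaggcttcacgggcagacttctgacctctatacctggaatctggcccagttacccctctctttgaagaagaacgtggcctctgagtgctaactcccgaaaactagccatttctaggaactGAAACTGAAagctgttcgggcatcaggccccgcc
Gbp7: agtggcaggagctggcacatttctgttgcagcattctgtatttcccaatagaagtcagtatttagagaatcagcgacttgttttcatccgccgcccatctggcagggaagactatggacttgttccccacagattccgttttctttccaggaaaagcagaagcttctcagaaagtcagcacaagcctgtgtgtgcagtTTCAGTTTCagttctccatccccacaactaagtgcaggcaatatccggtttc
The match starts 64, 34 and 52 bases before the gene start in Irgm2 (chr11:58214727-58214976, plus strand), Igtp (chr11:58199306-58199555, plus strand) and Gbp7 (chr3:142530086-142530335, plus strand). The other motifs searched in all promoters were the D boxes TTATGNAA and TTANGTAA, the E box CACGTG, the cell cycle element TTTGAA and the E2F site TTTCCCGC. Among them, CACGTG was present in 5 of 15 circadian clock genes and 9.69% of all. No match says only that these letters are not in the 250 bases.

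Other interferon and acute phase genes followed in part. Of 26 interferon response genes, 16 had a tissue difference below 0 (26.4% of all genes) and 3 above (25.4%); 19 fell (38.0%) and 3 rose (26.4%) in the ileum, and in the liver 3 rose (4.16%) and 1 fell (15.7%). Zbp1, the sensor of Z-form nucleic acids, fell from 83.6 to 6.16 CPM in the ileum and rose from 20.2 to 28.5 CPM in the liver (-4.16 ± 0.12). Ifih1, Oasl1 and Mx1 were the 3 above 0, with ileal rises of 0.47, 0.22 and 0.45. Saa1, an acute phase protein that the gut epithelium also makes, had the lowest tissue difference of the named genes, -5.75 ± 0.11. It held 156, 162 and 148 CPM in the ileum after vehicle and 2.65, 2.23 and 1.99 CPM after GW3965. The liver held 55.4, 54.1 and 55.4 CPM and 49.98, 51.2 and 56.9 CPM, which overlapped. Haptoglobin (Hp) moved the other way and rose from 2.80 to 34.0 CPM in the ileum, with a fall from 3108 to 2725 CPM in the liver. Ubd, an interferon- and TNF-induced ubiquitin-like protein, fell from 51.6 to 1.25 CPM in the ileum (-5.01 ± 0.19). Pigr, the epithelial carrier of IgA, fell from 2104 to 524 CPM in the ileum and rose from 495 to 573 CPM in the liver, and Duox2, the epithelial oxidase, fell from 751 to 186 CPM in the ileum.

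Genes of muscle, matrix, lymphocytes and dividing cells fell in the ileum as well. The 13 smooth muscle genes at 0.5 CPM or more in both treatments fell there (38.0% of all genes did) and had a tissue difference below 0 (26.4%); the median tissue difference of the list was -2.36, with medians of -2.55 in the ileum and 0.025 in the liver. Myh11, the smooth muscle myosin, fell from 2366 to 357 CPM in the ileum, and Des, desmin, fell from 1515 to 151 CPM in the ileum. Sums here and below run over all measured genes of a list, whether or not they passed the filter. For the 15 smooth muscle genes the sum was 12476 to 13009 CPM in vehicle and 2292 to 2306 CPM in treated ileum. In the liver it was 886 to 897 and 783 to 828 CPM. Of 29 matrix genes 28 fell in the ileum (38.0% of all genes) and 18 in the liver (15.7%; 13 with rescaling), with 26 tissue differences below 0 (26.4%); Fn1, fibronectin, fell from 409.7 to 92.6 CPM in the ileum and rose from 2275 to 2786 CPM in the liver, and Col1a1 fell from 358 to 97.5 CPM in the ileum. T and NK cell genes fell in 9 of 11 in the ileum (38.0% of all genes) and in 2 in the liver, near the 15.7% of all genes. The sum over all 16 genes of that list was 212 to 219.6 CPM in vehicle and 69.2 to 76.3 CPM in treated ileum. Gzmb, granzyme B, fell from 26.3 to 3.63 CPM in the ileum. All 24 enterocyte genes of the list summed to 32358 to 32976 CPM in vehicle and 69842 to 71420.0 CPM in treated ileum. Smooth muscle, matrix and immune sums thus moved with the treatment beside every ileal result above; their part in those results was not tested.

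Most cell cycle genes fell in the ileum, and a few rose in the liver. Of 25 cell cycle genes 20 had a tissue difference below 0 (26.4% of all genes) and 1 above (25.4%), 18 fell in the ileum (38.0%) and 6 rose in the liver (4.16%), 10 with rescaling; the median tissue difference of the list was -1.23, with medians of -1.25 in the ileum and 0.33 in the liver. Mki67, the proliferation antigen, held 52.2, 51.9 and 55.7 CPM and then 14.7, 14.6 and 14.9 CPM in the ileum. In the liver it held 21.6, 22.4 and 21.3 CPM and then 31.2, 29.6 and 28.2 CPM. Top2a, topoisomerase II, fell from 30.1 to 7.18 CPM in the ileum and rose from 9.94 to 15.3 CPM in the liver. Pcna was the exception, with 11.7 and 16.7 CPM in the ileum and 27.9 and 24.3 CPM in the liver. Crypt stem cell and Wnt target genes fell in 9 of 12 in the ileum (38.0% of all genes), among them Nkd1 (-2.32) and Myc (-1.22), while Rnf43 rose (0.87).

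The circadian clock differed between tissues in 13 genes above 0 and 3 below 0 of 18 (25.4% and 26.4% of all genes); the median tissue difference of the list was 1.32, with medians of 1.08 in the ileum and -0.19 in the liver. The clock runs as a loop in which BMAL1 (Arntl) and CLOCK induce their own repressors. Per2, one of these repressors, held 36.7, 33.6 and 38.1 CPM and then 165, 169 and 161 CPM in the ileum. In the liver it held 58.4, 54.7 and 56.0 CPM and then 37.2, 34.9 and 35.6 CPM. The treated libraries were higher in the ileum and lower in the liver (2.82 ± 0.076). Per3 and the output factors Dbp and Tef rose in the ileum by 3.11, 2.08 and 1.88 and were not called in the liver. Arntl fell from 39.1 to 15.3 CPM in the ileum, and Nfil3, the repressor that opposes Dbp on shared sites, fell from 28.9 to 2.95 CPM in the ileum while rising from 15.6 to 20.4 CPM in the liver (-3.47 ± 0.14). The hour at which each animal was killed is not part of the labels used.

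Some liver changes had an ileal counterpart of opposite sign. Of 8 bile duct genes, which the intestinal epithelium shares, 8 fell in the liver (15.7% of all genes; 6 with rescaling), and 5 rose and 3 fell in the ileum (26.4% and 38.0%): Epcam, the epithelial adhesion molecule, rose from 1037 to 1826 CPM in the ileum and fell from 12.6 to 5.17 CPM in the liver (2.04 ± 0.093), and Cftr, the chloride channel, rose from 43.8 to 129.8 CPM in the ileum and fell from 2.28 to 1.03 CPM in the liver. The summed level of all 10 bile duct genes of the list in the liver was 331 to 332 CPM after vehicle and 178 to 190.3 CPM after GW3965. NRF2 targets of the oxidative stress response fell in 11 of 14 in the liver (15.7% of all genes; 11 with rescaling), while 10 rose and 4 fell in the ileum (26.4% and 38.0%). Gclc, the catalytic subunit that makes glutathione precursors, rose from 34.1 to 111 CPM in the ileum and fell from 1143 to 793 CPM in the liver. Pericentral hepatocyte genes fell in 5 of 6 in the liver (15.7% of all genes; 4 with rescaling), while 4 rose and 2 fell in the ileum (26.4% and 38.0%). Opposite directions were called for 3 of them (6.77% of all genes), and for 2 with rescaling. Glul, glutamine synthetase, fell from 503 to 257 CPM in the liver and rose from 58.7 to 88.6 CPM in the ileum. Cyp2e1 fell from 1082 to 775 CPM in the liver and rose from 3.50 to 14.7 CPM in the ileum. Mt1, a metallothionein, rose from 566 to 888 CPM in the ileum and fell from 385 to 229 CPM in the liver.

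Ranked by the smaller of the 2 changes, the opposite genes up in the ileum and down in the liver were led by Arnt2, a partner of PAS-domain transcription factors (3.31 and 15.8 CPM in the ileum and 2.36 and 0.677 CPM in the liver), the cation transporters Slc22a3 (1.27 and -1.20) and Slc22a4 (1.23 and -0.97), Mal (1.04 and -1.02) and Thsd4 (1.21 and -0.91). In the other orientation Chrna4, a nicotinic receptor subunit, led. It held 4.78, 4.26 and 2.75 CPM and then 0.519, 0.0825 and 0.237 CPM in the ileum. In the liver it held 4.84, 5.72 and 5.07 CPM and then 22.1, 23.6 and 22.7 CPM, so the groups overlapped in neither tissue. Its treated ileal mean was under 0.5 CPM, and the tissue difference ran from -6.11 to -3.15 over the alternatives. Col5a3, a collagen chain, and Cmah, which makes the sialic acid Neu5Gc, had tissue differences of -3.27 and -2.65. These members were chosen for opposite calls, so their directions are a description.

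Other genes moved together in both tissues. Beside Abca1 and Scd1, Slc30a10, a manganese exporter, rose from 19.1 to 85.7 CPM in the ileum and from 3.82 to 7.76 CPM in the liver, though further in the ileum (1.21 ± 0.15). Cyp4f14, a fatty acid ω-hydroxylase, rose by 0.94 and 0.83, with a tissue difference of 0.11 ± 0.080 (limma, adjusted p = 0.24), and Enpp3 by 2.37 and 0.75. Those that fell in both included Kcnma1, a potassium channel (-2.15 and -1.53), Slit2, a guidance ligand (-1.31 and -1.67), Twist1 (-1.52 and -1.27) and Cd163, a macrophage scavenger receptor (-1.67 and -1.19). Macrophage and Kupffer cell genes fell in 11 of 13 in the ileum (38.0% of all genes) and 10 in the liver (15.7%), 9 with rescaling. The summed liver level of all 18 genes of that list was 2576 to 2617 CPM after vehicle and 1834 to 1914 CPM after GW3965. Cytosolic ribosomal protein genes also fell in both: 33 of 33 in the ileum (38.0% of all genes) and 31 in the liver (15.7%). With rescaling these were 32 and 27. The tissue difference was below 0 in 27 (26.4% of all genes), with a larger ileal fall (medians -0.67 and -0.29).

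**Figure D4:**
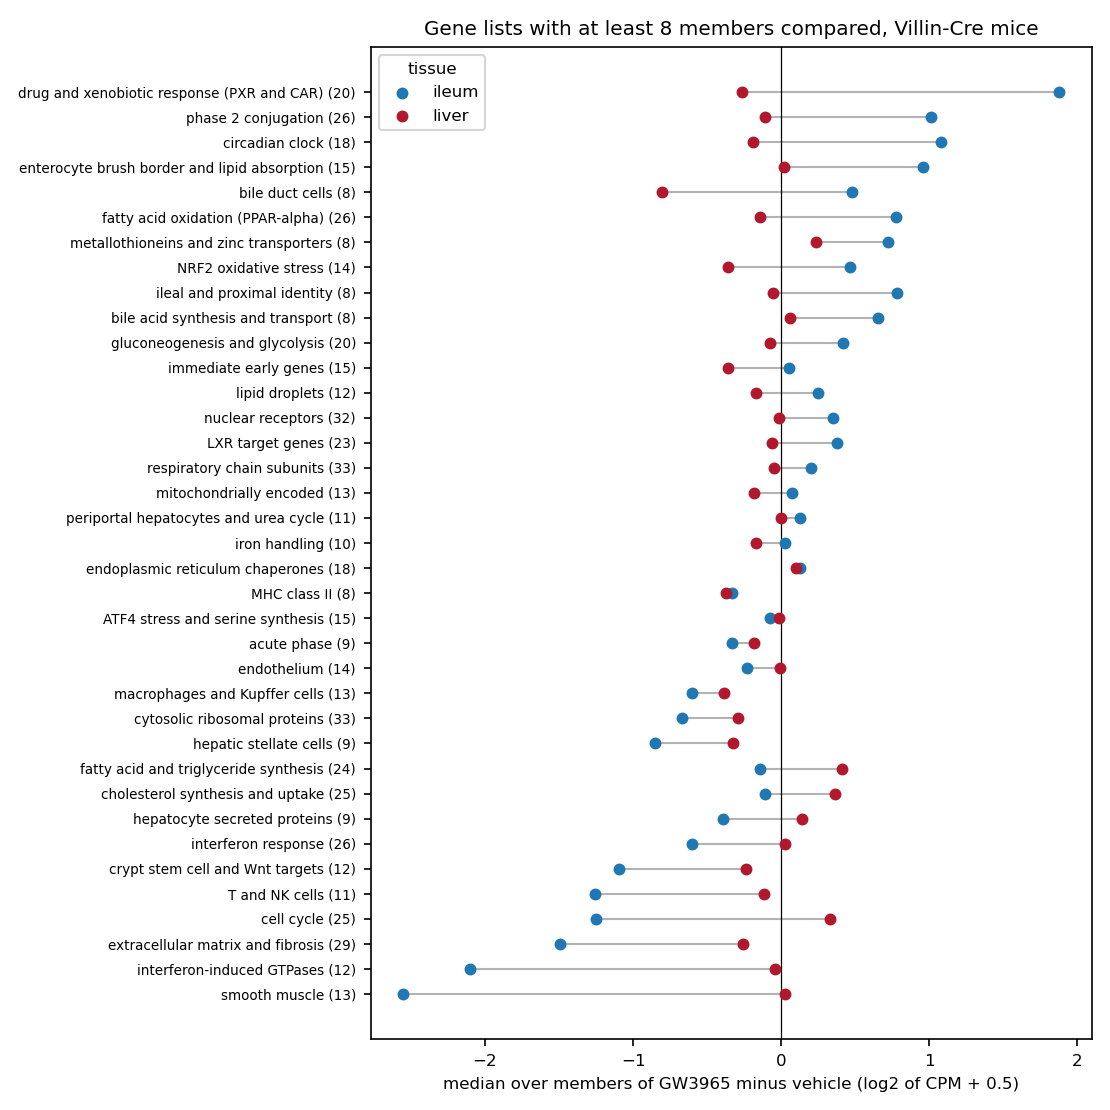
Median change with GW3965 (log2 of CPM + 0.5) over members at 0.5 CPM or more in both treatments of each gene list with at least 8 of them, in the ileum (blue) and the liver (red), ordered by the median tissue difference; numbers of members are in brackets. Drug response genes lie furthest right in the ileum (median 1.88) and smooth muscle genes furthest left (-2.55), while liver medians stay between -0.80 and 0.41.

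The 17 measured genes of hepatocyte secreted proteins, present only as traces in the ileum, summed to 91.9 to 106 CPM in vehicle and 61.4 to 74.1 CPM in treated ileum. In the liver they summed to 62541 to 62892 and 68036 to 70098 CPM. Of the 9 members at 0.5 CPM or more in both treatments, 5 had a tissue difference below 0 (26.4% of all genes). Zfp652, a zinc finger repressor, held 2547, 2582 and 3007 CPM in the ileum after vehicle, 65.4, 61.6 and 67.8 CPM after GW3965, and 128 and 124 CPM in the liver (-5.32 ± 0.070). In floxed ileum it averaged 99.8 and 111 CPM, and the 3 Villin-Cre vehicle libraries lie above all other ileal libraries.

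Whether the tissue difference depended on genotype was tested by subtracting the tissue difference of floxed mice (limma, all 24 libraries). It passed for 4160 genes (27.1%), 1927 above 0 (12.6%) and 2233 below 0 (14.6%), and with at least 2-fold for 1957 (12.8%), 689 above 0 (4.49%) and 1268 below 0 (8.27%). Saa1 had the lowest value, -7.08 ± 0.53 (limma, adjusted p = 8.95e-10): in floxed ileum it averaged 61.8 CPM after vehicle and 229 CPM after GW3965, a rise of 1.68, against the fall of 5.81 on the log2 scale in Villin-Cre ileum. Gata4, the factor of proximal small bowel identity, had 4.34 ± 0.33: it rose from 4.83 to 11.6 CPM in the ileum of Villin-Cre mice and averaged 31.5 and 3.54 CPM in floxed ileum. Gstm3 (4.64 ± 0.70), Cyp2b10 (4.41), Ces2a (4.31 ± 0.27), Nr1i3 (4.2 ± 0.36) and R3hdml (4.13 ± 0.52) were also above 0; floxed ileal levels of Ces2a were 32.8 and 59.2 CPM. Below 0 were Zfp652 (-5.68 ± 0.21), Chrna4 (-5.94), Slc7a11 (-5.46), Scd2 (-5.38 ± 0.35) and Ntrk2 (-4.96 ± 0.81). Cyp2b10, Chrna4 and Slc7a11 were under 0.5 CPM in 1 treatment of the Villin-Cre ileum, so their values are a description. Scd2 averaged 274 and 1605 CPM in floxed ileum and 497 and 81.4 CPM in floxed liver, changes of 2.44 and -2.60. For Abca1 the value was -2.0 ± 0.24. One floxed GW3965 library of each tissue stood apart from its group (ileum replicate 3 and liver replicate 1); without both, the 12 named genes kept their sign, with Saa1 at -7.85 and Chrna4 at -4.78.

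**Figure D5:**
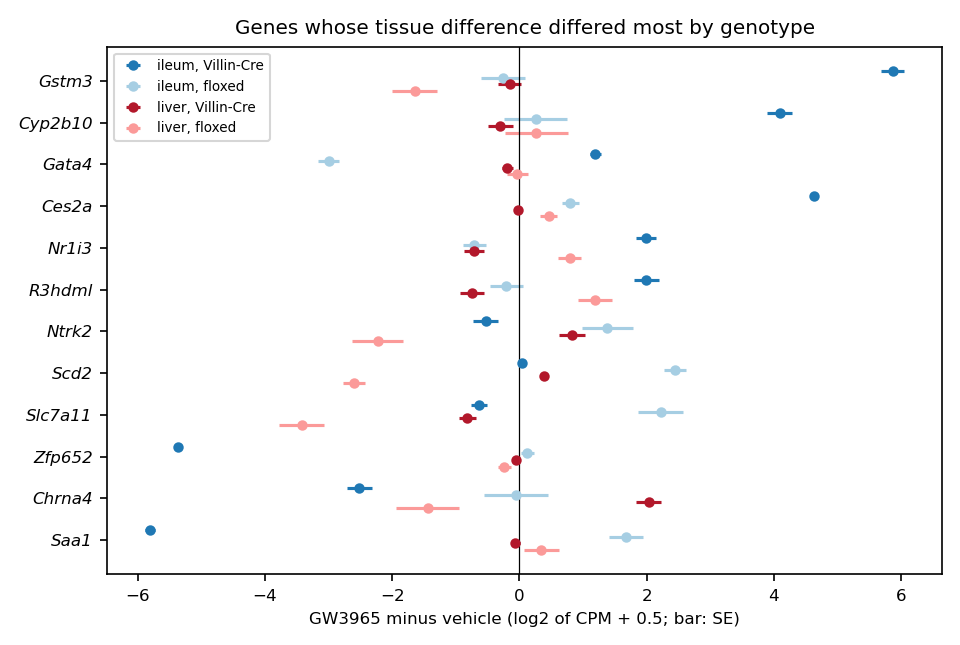
Change with GW3965 (log2 of CPM + 0.5) in the ileum and liver of Villin-Cre (dark) and floxed (pale) mice for the 12 genes named in the comparison by genotype; bars are SE, from the 12-library model for Villin-Cre and the 24-library model for floxed mice. Saa1 and Zfp652 lie far left only in Villin-Cre ileum, and Gstm3, Cyp2b10 and Ces2a far right only there.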

How the data were processed

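RNA from ileum and liver was sequenced as paired reads of 150 bases after ribosomal RNA removal, per the labels' protocols. The submitters' processing notes name bcl2fastq, STAR 2.5.1a, Subread and featureCounts 1.4.6-p5 with GRCm38. No label names the annotation release, the strand setting or the log formula. The authors deposited 1 table of log2 values per tissue. Each table held 40757 entries, of which 276 were exact repeats, leaving 40481 genes.

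All 24 libraries shared the same lowest value, -5.62 on the log2 scale. Subtracting it on the linear scale gave CPM, whose low values were whole multiples of 1 read within 0.05 of a read in 100% of cases. The pseudocount was 0.5 CPM. Tests used limma 3.58.1 (R 4.3.3) with a mean-variance trend on 4 groups of 3 libraries, with Benjamini-Hochberg adjustment over 15335 genes and a threshold of 0.05; the comparison by genotype used all 24. The fit was run on simulated independent libraries with known changes. That does not bear on whether the libraries of a group are technical. The tissues are in separate tables, so only changes within a tissue are subtracted from each other. Coordinates come from GENCODE M21 (GRCm38) and promoters from RefSeq (GRCm38.p6). Levels are means of n = 3 libraries and log2 values are given ± SE.

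Correlations of same-numbered libraries across groups ran from -0.069 to 0.028, and those of differently numbered libraries from -0.047 to 0.051. If the libraries of a group are technical, such values would arise with or without pairing, so whether the numbers mark animals is not settled. The genes named are Abca1, all LXR targets of the list, up to 12 genes each way by size of the tissue difference, up to 10 opposite genes in each orientation, up to 8 that moved together each way, up to 6 members per list plus exceptions to its majority, and up to 6 each way for the comparison by genotype. The members and gene lists were chosen with earlier results of these data known. Motifs longer than 9 letters are not reported here. Some list members are counted but their values are not reported here.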

Additional observations from a re-analysis of the deposited data

Results flagged for a closer look

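The response to GW3965 differed between ileum and liver in 7945 genes by limma's test of the tissue difference, and 1038 of the 15335 genes were called in opposite directions in the 2 tissues. The tissue difference itself differed between Villin-Cre and floxed mice in 4160 genes by limma's test of that difference over 24 libraries.

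Among the genes named in that comparison, Villin-Cre minus floxed, the values were 4.64 for Gstm3, 4.41 for Cyp2b10, 4.34 for Gata4, 4.31 for Ces2a, 4.20 for Nr1i3 and 4.13 for R3hdml. Below 0 they were -7.08 for Saa1, -5.94 for Chrna4, -5.68 for Zfp652, -5.46 for Slc7a11, -5.38 for Scd2 and -4.96 for Ntrk2. Without the floxed GW3965 libraries that stood apart (ileum replicate 3 and liver replicate 1) the values were 5.36 for Gstm3, 5.43 for Cyp2b10, 3.88 for Gata4, 4.18 for Ces2a, 4.17 for Nr1i3 and 4.06 for R3hdml. They were -7.85 for Saa1, -4.78 for Chrna4, -5.95 for Zfp652, -6.10 for Slc7a11, -5.78 for Scd2 and -5.70 for Ntrk2.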

How the results depend on the processing

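Counts of called genes are given for limma at an adjusted p of 0.05. When the spread was estimated over all 24 libraries, the liver response fell from 3051 to 1531 genes and the opposite calls from 1038 to 478. With the close libraries of each group averaged to 1 (10 units, 2 residual degrees of freedom), 10 genes were called in the tissue difference and 1279 in the ileum (10 and 1278 of them also called, with the same sign, when each library was a replicate). The liver response, the opposite calls and the comparison by genotype had 0 (972 genes at an unadjusted p under 0.05 for the last). The spread in the averaged fit came from the floxed GW3965 groups alone, so its counts do not measure spread within Villin-Cre groups. Leaving out 1 library at a time gave 7432 to 7857 genes for the tissue difference, 9356 to 9796 for the ileum, 2233 to 3307 for the liver, 782 to 1109 for opposite calls and 3764 to 4800 for the comparison by genotype. The other alternatives (pseudocount 2, other filters, rescaling, voom on recovered reads) stayed within 1.5 times the count reported.

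A replicate block by number gave 7859 genes for the tissue difference, 9817 for the ileum, 2924 for the liver, 991 opposite and 4134 by genotype; a replicate block by treatment and number gave 7827 for the tissue difference. Of 349 named genes 322 were called in the tissue difference; 51 of these lost the call under at least 1 alternative other than averaging, none reversed, and 6 were still called after averaging. Coro6, not called in the tissue difference (-0.11), was 0.45 with a pseudocount of 2; the cause was not tested. The labels do not say whether the libraries of a group are separate animals, and the depth of 17.1 to 32.3 M reads limits genes near 0.5 CPM.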

Other observations

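Several gene lists not described above also differed between tissues. Among 12 lipid droplet genes, 7 had a tissue difference above 0 and 2 below 0 (25.4% and 26.4% of all genes). Cidec, which enlarges droplets, rose from 21.5 to 70.8 CPM in the ileum and fell from 215 to 179 CPM in the liver, and the lipase Pnpla2 with its activator Abhd5 had tissue differences of 0.83 and 1.44. Mgll, the monoglyceride lipase, fell in both tissues (-0.82 and -0.33). Nuclear receptor genes lay above 0 in 19 of 32 and below 0 in 4 (25.4% and 26.4% of all genes). Rora fell from 16.6 to 7.36 CPM in the ileum and rose from 112 to 145 CPM in the liver. Respiratory chain subunits lay above 0 in 19 of 33 (25.4% of all genes), with a median tissue difference of 0.25; Atp5o rose from 86.6 to 128 CPM in the ileum and fell from 62.8 to 55.6 CPM in the liver, a liver call that was lost with rescaling.

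Immediate early genes had 10 of 15 tissue differences above 0 and 3 below 0 (25.4% and 26.4% of all genes). Zfp36, an mRNA decay factor, rose from 169 to 256 CPM in the ileum and fell from 138 to 88.4 CPM in the liver. Egr1 fell in both (-1.54 and -1.03), and Nr4a1 fell from 7.83 to 1.32 CPM in the ileum, with 15.5 and 15.0 CPM in the liver. Of 8 MHC class II genes, 7 fell in the ileum and 6 in the liver (38.0% and 15.7% of all genes), 6 and 5 with rescaling. As a list they did not differ between tissues in 1 direction. The tissue difference was above 0 in 3 and below 0 in 3 (25.4% and 26.4% of all genes), with a median of 0.025. Ciita, their shared transactivator, fell from 125 to 60.4 CPM in the ileum and held 10.9 and 11.5 CPM in the liver. B and plasma cell genes fell in 7 of 7 in the ileum (38.0% of all genes), and Jchain, the joining chain of IgA, went from 339 to 134 CPM in the ileum and from 9.09 to 5.78 CPM in the liver. Metallothionein and zinc transporter genes rose in 6 of 8 in the ileum (26.4% of all genes); Slc39a4, the zinc importer of the enterocyte, rose from 206 to 655 CPM in the ileum and from 134 to 177 CPM in the liver. Mmp7, an epithelial protease that activates defensins, fell from 22.1 to 4.46 CPM in the liver and from 2.82 to 1.30 CPM in the ileum, a tissue difference of 1.30 ± 0.29.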
